A study of Mus musculus with 4 samples.

Results

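The question was which genes differ after endothelin-1 (ET-1) by another amount in fibroblasts without focal adhesion kinase (FAK) than in fibroblasts that have it. For each gene, the log2 difference between ET-1-treated and untreated wild-type cells was subtracted from the same difference in knockout cells. A positive value therefore means that the ET-1 difference was higher in the knockout, and a negative value that it was lower. Of 18194 genes with a probe set annotated to them alone, 5240 had 2 or more probe sets whose highest value lay above the median of all values (log2 8.90), and these were compared. In 2462 of the 5240 genes, or 47.0%, every such probe set gave the same sign, 929 genes higher and 1533 lower. In 60 of these agreeing genes the mean over the probe sets was 2-fold or more in the higher direction (1.15% of the 5240 genes). In 31 it was so in the lower direction (0.592%), together 91 genes (1.74%). The genes described are agreeing ones unless said otherwise. Medians of gene lists and their counts above or below 0 take every compared gene, agreeing or not.

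The cells were mouse embryonic fibroblasts, mixed mesenchymal cells grown from embryos, of mice that were FAK +/+ (called wild type) or FAK -/- (called knockout). All cells were at passage 5 and had been grown with 10% fetal bovine serum. At 50% confluence they were kept without serum for 24 h and then with or without ET-1 for a further 24 h. The labels do not say how many embryos or lines of each genotype were used, and the ET-1 dose is not given in the sources used here. Each of the 4 groups is 1 array, so no value has a replicate check and no test could be made. Probe sets of a gene share the RNA and the array, and their agreement is not agreement between cultures.

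FAK is a tyrosine kinase recruited to integrins where cells attach to the extracellular matrix, and it passes signals on to Src, paxillin and the actin cytoskeleton. ET-1 is a secreted peptide that acts through G protein-coupled receptors, which use Gq, phospholipase C and protein kinase C among other routes, and it is known in fibroblasts for promoting contraction and matrix production. Receptors of this class can activate FAK, and in fibroblasts FAK has been placed downstream of ET-1 in the programme of matrix and contractile genes.

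The ET-1-treated wild-type array stood apart from the other 3 in control transcripts that have probe sets at both ends. For Gapdh, the 3' probe set read 3.79 (log2) above the 5' one there, against 0.87 in untreated wild type, 0.85 without and 0.90 with ET-1 in the knockout. The gaps of 4 spike-in transcripts were wider in ET-1-treated than in untreated wild type by 0.73 to 1.27, while between the knockout arrays they changed by -0.05 to 0.09. The gap of Actb was 1.81 in that array against 0.66, 1.30 and 1.27 in the other 3, whereas the gaps of Pcx and Tfrc were not wider there. Every difference of ET-1 differences uses this array and could not be given without it, and the part of these gaps in the results was not tested. Gapdh itself, whose 3 probe sets are all Affymetrix controls, is 1 of the 60 higher genes. Its probe sets gave 2.96 at the 5' end, 0.47 in the middle and 0.10 at the 3' end.

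**Figure D1:**
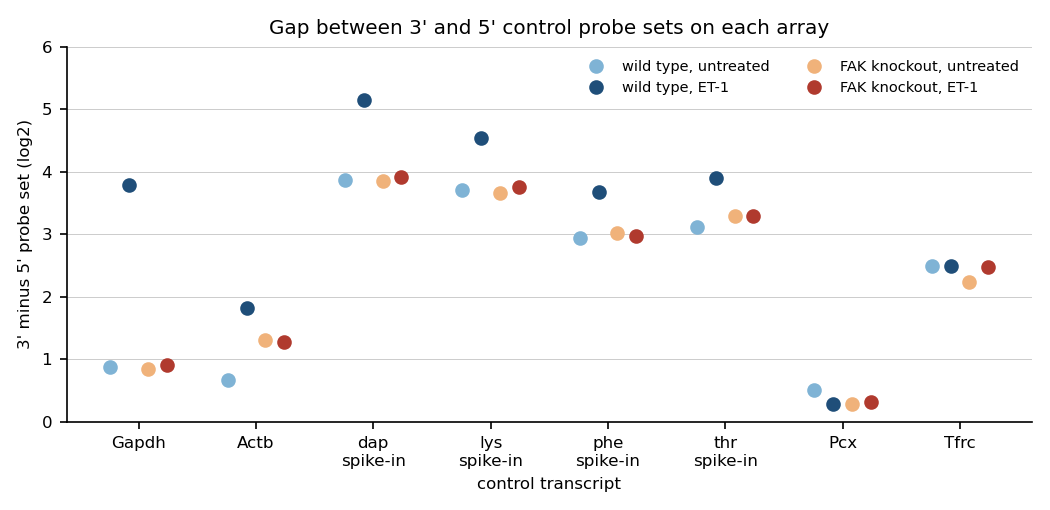
The log2 difference between the 3' and 5' probe sets of 8 control transcripts is plotted for each of the 4 arrays, 1 point per array. The ET-1-treated wild-type array has the widest gap for Gapdh, Actb and the 4 spike-ins, and not for Pcx and Tfrc.

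The genotype labels could not be checked, because 0 probe sets are annotated to Ptk2, the gene of FAK. Marker lists of cell types were read too, each gene from its brightest probe set. Of 18 fibroblast markers, 16 lay above the median level on each array except treated knockout, where 14 did. In untreated wild type so did 12 of 16 epithelial, 10 of 13 smooth muscle and pericyte, and 8 of 16 skeletal muscle markers. Of all 18194 genes, 12306 had a probe set above that level on some array. Lying above it thus does not show that a cell type was there. The summed level of the fibroblast markers (log2) was 17.82 and 17.94 in wild type without and with ET-1, and 17.33 and 17.25 in the knockout. Markers of mesothelium, the epithelium-like lining of body cavities, were read in the same way. Of 28, 22 and 14 lay above the median level in wild type without and with ET-1, and 23 on each knockout array. Their summed level was 16.09 and 15.63 in untreated and ET-1-treated wild type and 17.82 and 17.64 in untreated and ET-1-treated knockout. In such bulk RNA, fewer cells of a type and less RNA per cell cannot be told apart.

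Among all 5240 genes the difference of ET-1 differences had a median of -0.04 on the log2 scale and an SD over genes of 0.38, and it ran from -2.88 to 5.04. The ET-1 difference had an SD over genes of 0.34 in wild type and 0.21 in the knockout. In wild type, 12 genes were higher (0.229%) and 47 lower (0.897%) after ET-1 by 2-fold or more with agreeing probe sets. In the knockout 7 were higher (0.134%) and 5 lower (0.0954%). Each value of the difference of differences contains both, so these counts are its components and not separate support.

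The 91 genes fell into kinds by the genotype that carried the ET-1 difference. In 42 genes wild type alone carried it, with a difference of at least 2-fold there and of less than 1.5-fold in the knockout. In 36 of these the gene was lower after ET-1 in wild type, and in 6 it was higher. In 10 genes the knockout alone carried it by the same limits, 5 in each direction, and in 9 the genotypes differed in opposite directions by 1.5-fold or more. No gene was at 1.5-fold or more in the same direction in both genotypes (0 of 91), and 30 met none of these definitions. The larger ET-1 difference belonged to wild type in 67 of the 91 genes and to the knockout in 24.

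**Figure D2:**
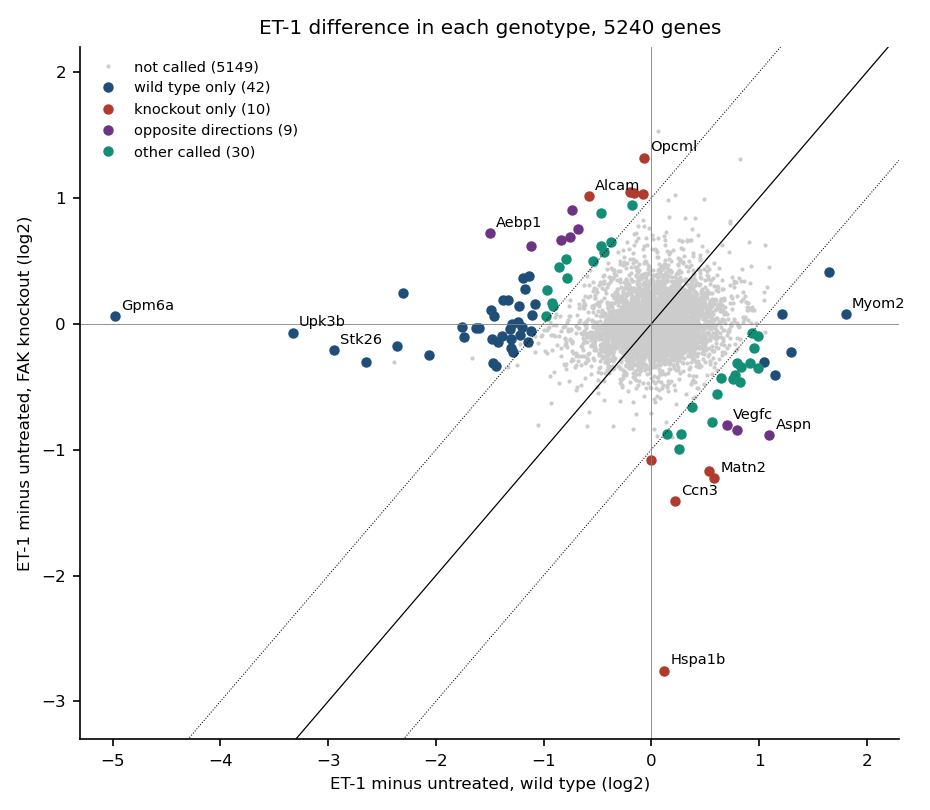
Each point is 1 of 5240 genes, with the ET-1 minus untreated log2 difference in wild type on the x axis and in the FAK knockout on the y axis. The solid line marks equal differences and the dotted lines a 2-fold difference between them. Coloured points are the 91 genes at 2-fold or more whose probe sets agree in sign, 36 of them are lower after ET-1 by 2-fold or more in wild type with a difference under 1.5-fold in the knockout, and Hspa1b lies alone at the bottom.

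In the 60 higher genes the ET-1-treated wild-type array was the lowest of the 4 in 56, and in the 31 lower genes it was the highest in 27. The ET-1-treated knockout array was the lowest in 23 of the 31. The choice of the genes fixes much of this pattern. The probe sets of a gene often differed in size. The range from the lowest to the highest probe set had a median of 0.447 (log2) over the 5240 genes and of 1.37 over the 60 higher genes, 39 of which had a range above 1. In the 31 lower genes the median range was 0.591, with 11 above 1. Every probe set was at 2-fold or more in 22 genes (0.42%), 11 higher and 11 lower.

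Heat shock genes are classically driven through inverted repeats of GAA, and the promoters of 4 leading genes (Hspa1b, Aspn, Upk3b and Aebp1) were searched for such a repeat. Those of Hspa1b and Upk3b held a match and are shown for that reason, while those of Aspn and Aebp1 held 0. Each window is the 250 bases before the RefSeq transcription start of the GRCm38.p6 assembly, 5' to 3'. Capitals mark the match to GAANNTTC or TTCNNGAA, searched on both strands. Either form counted as a match, and the share of all mouse windows that hold either was not computed. Other motifs were searched too and had no match in these 4 promoters. Hspa1b lies on chromosome 17 (chr17:34959239-34959488, minus strand), with the match starting 104 bases before the start.
Hspa1b: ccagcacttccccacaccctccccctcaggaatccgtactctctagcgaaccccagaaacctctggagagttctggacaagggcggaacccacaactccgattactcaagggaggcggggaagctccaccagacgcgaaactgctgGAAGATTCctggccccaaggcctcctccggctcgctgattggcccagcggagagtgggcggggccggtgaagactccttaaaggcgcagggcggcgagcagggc
Upk3b lies on chromosome 5 (chr5:136038246-136038495, plus strand), with the match starting 64 bases before the start.
Upk3b: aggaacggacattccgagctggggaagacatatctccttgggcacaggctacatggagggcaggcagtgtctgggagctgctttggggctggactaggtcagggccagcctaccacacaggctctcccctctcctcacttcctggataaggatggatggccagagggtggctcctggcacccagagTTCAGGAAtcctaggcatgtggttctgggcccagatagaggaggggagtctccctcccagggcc
GAANNTTC stands in 6.69% and TTCNNGAA in 7.17% of all 32851 such mouse windows, so a match is a description and not a shown site.

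The largest positive values were those of Gpm6a and Upk3b, both mesothelial markers. Gpm6a, a membrane glycoprotein first known from neurons, had mean log2 values of 11.08 in untreated and 6.11 in ET-1-treated wild type and 14.04 and 14.11 in untreated and ET-1-treated knockout. The treated wild-type array was far below the others, and both knockout arrays were alike and highest. The difference of ET-1 differences was 5.04, with probe sets at 4.59 and 5.49. Upk3b, a uroplakin of urothelium and mesothelium, read 12.08, 8.75, 14.53 and 14.46 in the same order, which gave 3.26 with probe sets at 3.09 and 3.42. Its partner-type tetraspanin Upk1b read 11.22, 8.57, 13.86 and 13.56. In both uroplakins, as in Gpm6a, treated wild type was lowest, untreated wild type next and the knockout arrays highest. The 4 probe sets of Upk1b gave values from 0.90 to 4.33 around a mean of 2.35.

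These 3 were the mesothelial markers at 2-fold or more among 9 of the list with 2 or more bright probe sets, and none of the 9 was lower by 2-fold. The median of the 9 was 0.11 against -0.04 over all genes. Bnc2, Clu, Igfbp5 and Sulf1 lay between -0.24 and 0.11, each with probe sets that disagreed in sign. Podxl, a surface sialomucin, gave 0.77 with probe sets that disagreed (-0.09 and 1.64), and the keratin Krt8 gave -0.46. When all 28 markers were read from their brightest probe set, 9 were higher by 2-fold or more and 0 lower. By the same reading 1.1% of all 18194 genes were higher and 0.923% lower. Beside Gpm6a, Upk3b and Podxl these were Efemp1, Krt18, Aldh1a1, Bnc1, Lrrn4 and Wt1. Wt1, a transcription factor that defines mesothelium, read 10.20 and 8.47 in untreated and ET-1-treated wild type and 13.43 and 13.41 in the knockout. Msln, also of that lining, had both knockout arrays highest too, but its wild-type arrays differed little (12.05 in each) and the value was -0.11. Krt19 (-0.84) had both wild-type arrays above the knockout ones, with treated knockout the lowest.

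Other genes too had treated wild type lowest, untreated wild type next and both knockout arrays highest. Stk26, a kinase of the Ste20 family, read 10.14, 7.19, 13.17 and 12.96, and its probe sets gave 1.35 and 4.13 around 2.74. Pcsk5, a proprotein convertase, read 8.69, 6.93, 12.53 and 12.51, a value of 1.74. Peg3, an imprinted zinc finger gene, read 9.91, 7.55, 12.89 and 12.71, a value of 2.19 with a wide probe set range (0.91 to 4.42). Gpm6a, both uroplakins, Stk26, Pcsk5 and Peg3 were all below the median level in treated wild type, and Pcsk5 in untreated wild type too. The size of their values thus rests on a dim array. Col5a2, a chain of the fibrillar collagen V, read 11.41, 9.98, 13.94 and 13.79. Its probe sets agreed closely, at 1.23 and 1.34. Krt14, a basal keratin, had a mean of 1.82 that rested on 2 probe sets at 2.43 and 2.98, with the other at 0.05. Its mean level too was below the median level in treated wild type.

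The 36 genes that were lower after ET-1 in wild type alone were read in sets by their untreated levels. In 12 of them untreated knockout exceeded untreated wild type by 2-fold or more, as in 4.06% of the 5240 genes, here by 1.65 to 3.85 (median 2.88, log2). In these 12 the treated wild-type array read 6.11 to 9.98 and the knockout arrays 11.59 to 14.53, and the knockout ET-1 difference was -0.30 to 0.25. The genotype difference and the difference of ET-1 differences share the untreated arrays, so nothing is read from their occurring together. The mesothelial marker sum too was lowest in treated wild type and highest in the knockout arrays, and its part in these values was not tested. In these 12 genes untreated wild type lay between treated wild type and the knockout arrays. Whether the untreated wild-type culture held cells or RNA of another kind, the other genotype included, was not tested, and with 1 array a group this and an ET-1 difference cannot be told apart.

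In the other 24 genes of this kind the untreated genotypes differed by -1.42 to 0.76 (knockout minus wild type, median -0.04). Rps15, a protein of the small ribosomal subunit, read 12.98 in untreated and 11.38 in ET-1-treated wild type and 12.89 and 12.86 in the knockout. Only the treated wild-type array was low, and the probe sets gave 1.36 and 1.78. Tcf3, the E2A helix-loop-helix factor, read 11.07, 9.61, 10.57 and 10.63, a value of 1.52 with probe sets at 1.36 and 1.69. Mmp14, the membrane-anchored collagenase, read 11.50, 10.33, 10.48 and 10.75, a value of 1.44 (0.78 to 2.10). Here too the treated wild-type array was the lowest. Tcf7l2, a transcription factor of the Wnt pathway, gave 1.51 with probe sets from 0.45 to 3.36, and Csrp1, an actin-associated LIM protein, gave 1.06 (0.60 to 1.51). Gapdh belongs to these 24. Over all 36 genes the probe set range had a median of 1.75, and it was above 1 in 25, so the size of these values depended on the probe set read. The control gaps above differ on the same array, and their part in these values was not tested.

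**Figure D3:**
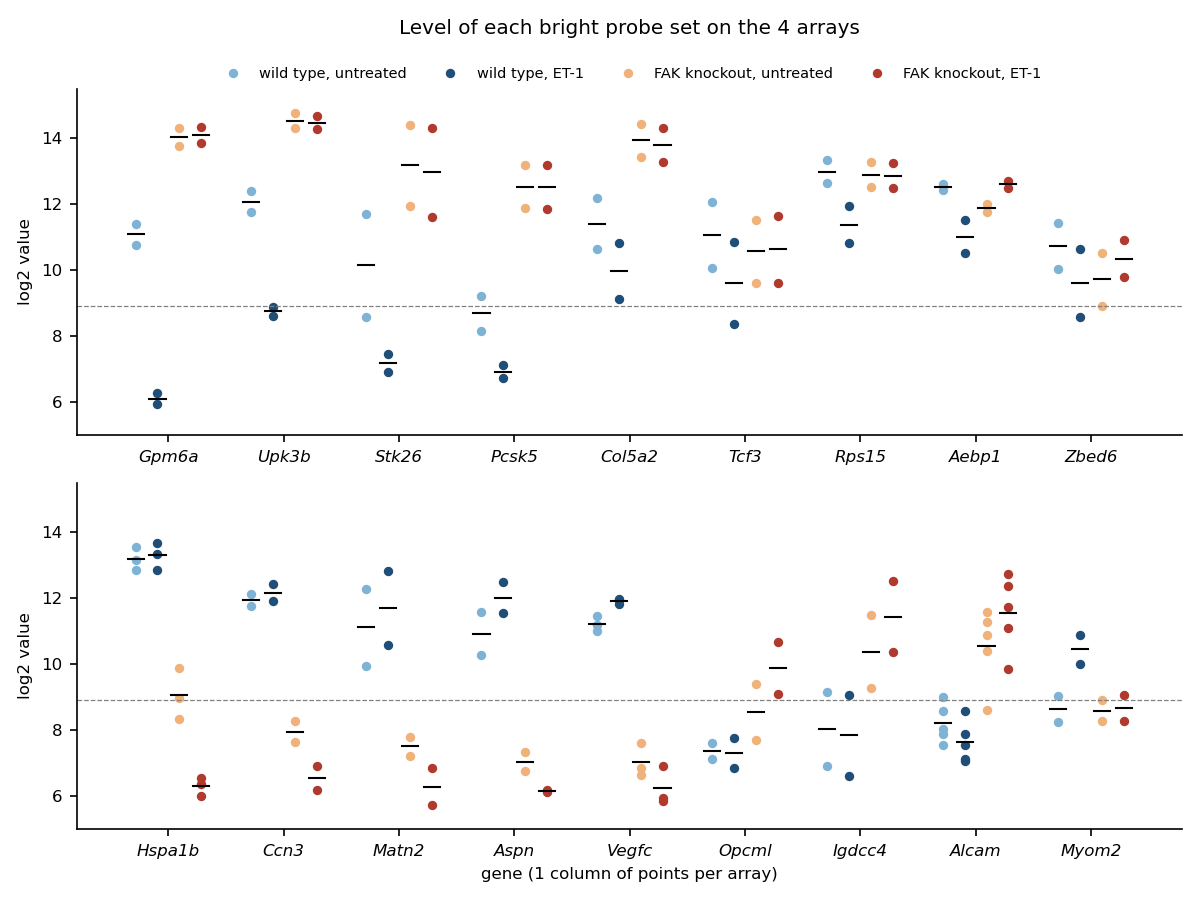
Log2 values of every bright probe set (points) and their mean (bar) are plotted for 18 genes on the 4 arrays, and the dashed line is the median of all values. In the upper panel treated wild type is the lowest array, while in the lower panel Hspa1b, Ccn3, Matn2, Aspn and Vegfc are lowest in treated knockout, Opcml, Igdcc4 and Alcam are highest in treated knockout, and Myom2 is highest in treated wild type.

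The reverse kind, higher after ET-1 in wild type only, held 6 genes. Myom2, an M-band protein of striated muscle, read 8.64 in untreated and 10.44 in ET-1-treated wild type and 8.59 and 8.67 in the knockout. Treated wild type was alone above the rest, and the bright probe sets gave -1.75 and -1.71. Its dimmer probe sets, which were not used, gave 0.06 and -0.63. Prxl2a, a peroxiredoxin-like protein, read 9.57, 11.22, 8.79 and 9.20, a value of -1.24 (-1.43 to -1.05). Col11a1, a fibrillar collagen chain, read 9.80, 10.95, 7.04 and 6.63, a value of -1.56 (-1.68 to -1.43). For Col11a1 both knockout arrays were below the median level. Pdgfd, a ligand of the PDGF beta receptor, gave -1.35 with probe sets at -1.73 and -0.97, again with both knockout arrays below that level. Rrm2b, a p53-inducible subunit of ribonucleotide reductase, read 8.80, 10.02, 9.42 and 9.50, a value of -1.14. The sixth was Washc4, which the rule for named genes does not cover, at -1.52 (-2.23 to -0.37).

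The knockout carried the difference in 10 genes. Hspa1b, the stress-inducible Hsp70, gave the lowest value of all 5240 genes. It read 13.18 and 13.30 in untreated and ET-1-treated wild type and 9.07 and 6.31 in untreated and ET-1-treated knockout. Both wild-type arrays were high and alike, and the treated knockout was the lowest. The knockout was lower after ET-1 by 2.76 (log2), a size that rests on a treated value below the median level, and the difference of ET-1 differences was -2.88, with 3 probe sets from -3.49 to -2.36. Its near-identical copy Hspa1a can share signal with it. The single Hspa1a probe set lay below the median level on all 4 arrays.

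No other heat shock gene was at 2-fold. Of 21 entered, 1 was lower by 2-fold and 0 higher, beside 0.592% and 1.15% of all genes, and the median was -0.12. Among the others the co-chaperone Dnajb4 gave -0.52 and the Hsp110 gene Hsph1 gave 0.68. Ccn3, a matricellular regulator, read 11.94, 12.16, 7.95 and 6.54, a value of -1.62 with probe sets at -1.66 and -1.59. Matn2, the adaptor matrilin of the matrix, read 11.11, 11.70, 7.50 and 6.28, a value of -1.81 (-2.60 to -1.02). Both genes were below the median level in the knockout with or without ET-1. Prkar2b, which encodes a type II regulatory protein kinase A subunit, gave -1.71, and its 3 probe sets ran from -2.28 to -0.59. Both knockout arrays were below the median level for Prkar2b too. Its knockout ET-1 difference ran from -1.84 to -0.08 over the probe sets. Txnrd1, cytosolic thioredoxin reductase, gave -1.08 from probe sets that hardly agreed, at -2.13 and -0.02.

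Txnrd1 apart, the untreated knockout already lay below untreated wild type in these genes, with a knockout minus wild-type value from -3.61 (Matn2) to -4.11 (Hspa1b). Of the 18 fibroblast markers, read from the brightest probe set, 3 were lower by 2-fold or more and 0 higher, beside 0.923% and 1.1% of all 18194 genes by that reading. They were Thy1 (-2.55), Prrx1 (-1.54) and S100a4 (-1.16), each named after its value was seen. Thy1, a surface protein used to mark fibroblasts, read 13.01 and 13.46 in untreated and ET-1-treated wild type and 8.95 and 6.85 in untreated and ET-1-treated knockout. This is the order of arrays seen for Hspa1b and Ccn3, with untreated knockout between treated knockout and the wild-type arrays. Whether the untreated knockout culture held cells or RNA of the other genotype was not tested either, and this too cannot be told apart from an ET-1 difference. Col3a1, Dcn and Vim, also on the list, were above log2 12 on all 4 arrays. The part of these markers in the values was not tested.

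The knockout was higher after ET-1 in 5 genes of this kind. Opcml, an immunoglobulin-domain protein anchored in the membrane, read 7.38 and 7.31 in untreated and ET-1-treated wild type and 8.55 and 9.87 in the knockout. Treated knockout was the highest and the only array above the median level, and the value was 1.39 (1.12 to 1.65). Igdcc4, of the same superfamily, read 8.04, 7.84, 10.38 and 11.43, a value of 1.25 (1.11 to 1.39). Alcam, the adhesion molecule CD166, read 8.21, 7.63, 10.55 and 11.56. Each of its 5 probe sets was positive, from 0.73 to 2.70 around 1.59. In both genes the order was treated wild type lowest and treated knockout highest. The other 2 genes of this kind were the long noncoding transcript Kantr (1.11) and 2310067E19Rik (1.20), which the rule for named genes does not cover.

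More regulators had their larger ET-1 difference in the knockout without meeting the definition. Etv5, an ETS factor induced by growth factor signalling, read 9.03, 8.57, 9.69 and 10.57, a value of 1.35. Sox9, the chondrogenic transcription factor, read 8.73, 8.36, 8.40 and 9.05, a value of 1.03 at levels near the median. Kcnq1ot1, an imprinted noncoding transcript antisense to Kcnq1, read 7.94, 7.77, 9.59 and 10.54, a value of 1.12. In all 3 genes treated knockout was the highest array. The nuclear corepressor Lcor gave 1.01, and Tanc2 (0.91), Ypel2 (0.84) and Marf1 (0.80) stayed under 2-fold. On the lower side stood Prkg2, the membrane-bound cGMP-dependent kinase, at -1.26, Ptgs2, the inducible cyclooxygenase, at -1.02, and Gadd45b, a stress-response gene, at -1.04. Prkg2 read 13.41, 13.67, 10.13 and 9.14, high in both wild-type arrays and lowest in treated knockout. For Ptgs2 both knockout arrays were below the median level, and its probe sets ran from -1.54 to -0.50. They disagreed in sign on its wild-type ET-1 difference.

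ET-1 went with opposite differences of 1.5-fold or more in 9 genes, and 5 of these had both differences agreeing over all their probe sets. Aebp1, a secreted protein that binds fibrillar collagen, read 12.51 in untreated and 11.01 in ET-1-treated wild type and 11.88 in untreated and 12.60 in ET-1-treated knockout. The gene was 2.83-fold lower after ET-1 in wild type and 1.64-fold higher in the knockout, which gave 2.22 on the log2 scale (1.80 to 2.64). All 4 of its levels were far above the median. Zbed6, a transcription factor encoded within an intron of Zc3h11a, read 10.72, 9.61, 9.72 and 10.34, a value of 1.74 (1.14 to 2.33). Signal of its host transcript cannot be told apart from it here. The exoribonuclease Xrn1 read 9.59, 8.84, 9.29 and 9.99, a value of 1.45 (0.53 to 2.36).

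Aspn and Vegfc were opposed the other way. Aspn (asporin), a small leucine-rich proteoglycan of collagen fibrils, read 10.92 and 12.02 in untreated and ET-1-treated wild type and 7.04 and 6.15 in untreated and ET-1-treated knockout. It was higher by 1.09 in wild type and lower by 0.89 in the knockout, a value of -1.98 with probe sets at -2.04 and -1.92. Vegfc, the growth factor of lymphatic vessels, read 11.21, 11.91, 7.04 and 6.23, a value of -1.51 over 3 probe sets from -1.81 to -1.20. Both knockout arrays were below the median level for both genes, so their knockout difference lies between dim values. Ablim1, an actin-binding LIM protein, was opposed by smaller amounts (0.61 and -0.55), with all 4 arrays above log2 10. Ifngr2, a chain of the interferon-gamma receptor, gave -1.64 from probe sets at -3.20 and -0.07. Of all 5240 genes, 587 had opposite ET-1 differences of any size in the genotypes in every probe set. Such genes agree in sign by construction, so nothing is read from their number among the 2462 agreeing genes.

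**Figure D4:**
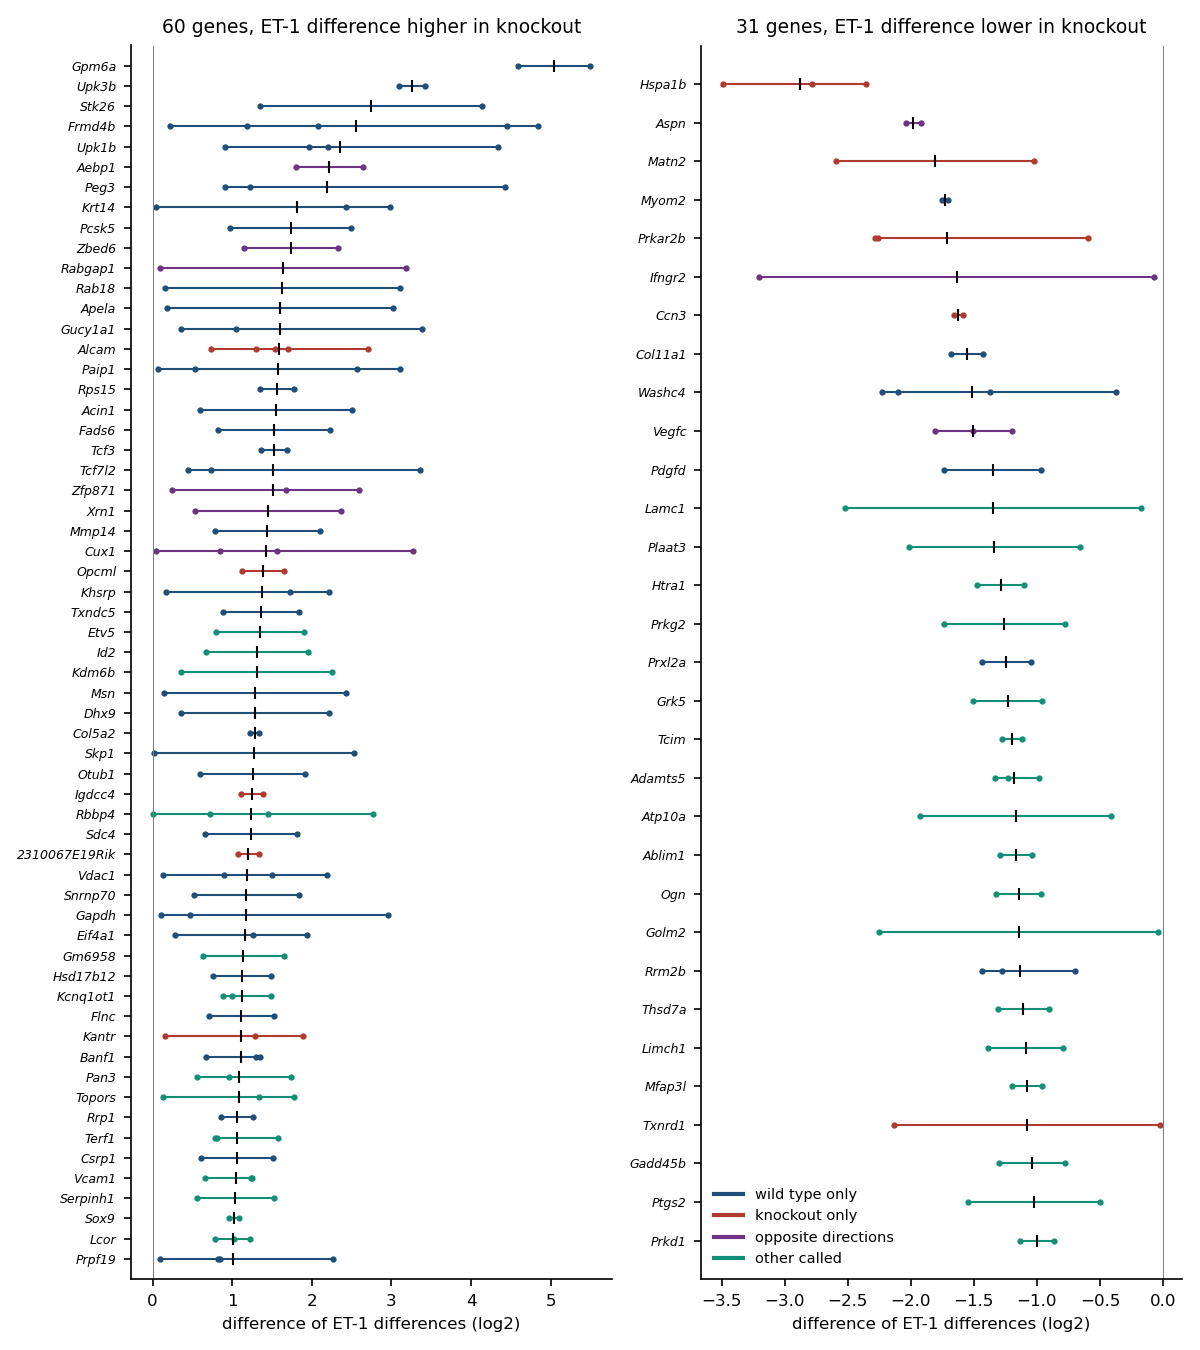
The difference of ET-1 differences (log2, knockout minus wild type) is plotted for the 60 higher and 31 lower genes, with a dot for each bright probe set, a line for their range, a tick for their mean and the colour for the genotype that carried the difference. Ranges are wide for many higher genes, such as Frmd4b and Gapdh, and short for Upk3b, Col5a2, Myom2, Ccn3 and Aspn.

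Counts at 2-fold in the lists that follow may be read beside the 1.15% of all genes that were higher and the 0.592% that were lower. Most collagens lay below 0. Of 14 collagens, 12 were below 0 and 2 above, with a median of -0.32 against -0.04 over all genes, of which 44.0% were above 0. In 9 of the 14 the probe sets agreed, beside 47.0% of all genes. Their ET-1 differences had a median of 0.18 in wild type and of -0.25 without FAK. Col1a1, the main chain of collagen I, read 12.90 and 13.15 in untreated and ET-1-treated wild type and 11.23 and 10.80 in the knockout, a value of -0.70 (-0.84 to -0.55). Its partner Col1a2 gave -0.43, Col3a1 gave -0.63 and the basement membrane chain Col4a1 gave -0.73. These are values under 2-fold. Col11a1 was the collagen lower by 2-fold or more and Col5a2 the one higher.

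Of 29 matrix glycoproteins, proteoglycans and crosslinkers, 17 were below 0 and 12 above, with a median of -0.08, so the share above 0 was near the 44.0% of all genes. By 2-fold or more 4 of the 29 were lower, beside 0.592% of all genes: Aspn, Matn2, the laminin chain Lamc1 (-1.35, probe sets at -2.52 and -0.18) and Ogn, another leucine-rich proteoglycan (-1.15). The collagen chaperone Serpinh1, named after its value was seen, was the one higher, at 1.04. Fibronectin (Fn1) gave 0.71 from probe sets that disagreed, at -0.02 and 1.43. Among 12 metalloproteinases and inhibitors, Mmp14 was higher and the aggrecanase Adamts5 lower (-1.18, from -1.33 to -0.98). Htra1, a secreted serine protease, read 13.01, 13.83, 13.44 and 12.97, a value of -1.29 (-1.47 to -1.10). Treated wild type was the highest array.

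Of 25 growth factors and receptor kinases, 11 were above 0, a share like the 44.0% of all genes, with a median of -0.14. Vegfc and Pdgfd were lower by 2-fold or more (2 of 25, beside 0.592% of all genes). Vegfd gave -0.97 and Igfbp7, a binding protein of insulin-like growth factors, gave -0.92. Of 11 genes of the CCN family and of YAP response, 9 were below 0 (median -0.22), and Ccn3 alone was at 2-fold. Of 19 genes of TGF-beta, activin and BMP signalling, the median was 0.00. Id2, an inhibitor of helix-loop-helix factors, was higher by 1.31 (0.67 to 1.95) and its relative Id4 by 0.997, just under 2-fold. The type II TGF-beta receptor gene Tgfbr2 gave -0.61.

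Of the routes named for ET-1 and FAK, the Gq and focal adhesion lists had medians near 0, with members on both sides. Of the endothelin system only Ece2, a converting enzyme, had 2 bright probe sets, at -0.13. Of 16 genes of Gq, phospholipase C and protein kinase C, 10 were above 0 and 6 below, with a median of 0.08, and 1 was lower by 2-fold. That gene, Prkd1 (protein kinase D1), read 11.97, 12.90, 11.76 and 11.69, higher in treated wild type than in the rest, a value just at 2-fold lower (-1.14 to -0.87). Plcb4, a phospholipase C isoform, gave 0.83 (0.25 to 1.77). Of 25 focal adhesion and scaffold genes, 13 were above 0 and 12 below with a median of 0.00, and 0 reached 2-fold, which may be read beside 1.74% of all genes. Src gave 0.35 and Lims1, a partner of integrin-linked kinase, gave -0.55. Ptk2b, the FAK relative Pyk2, read 8.97 and 8.89 in untreated and ET-1-treated wild type and 9.93 and 10.04 in the knockout, and its probe sets disagreed. In none of 5 integrins did the probe sets agree in sign (0 of 5), beside 47.0% of all 5240 genes, and nothing is read from so few.

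Of 12 contractile and actin-bundling genes, 6 lay on each side of 0, and Csrp1 was the one at 2-fold. Of 18 protein kinase A subunits and anchors, 8 were above 0, and only Prkar2b reached 2-fold. Of 13 immediate early transcription factors and 10 feedback inhibitors of MAP kinases, none reached 2-fold with agreeing probe sets, and Spred1 gave 0.71 (0.14 to 1.45).

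Lists of metabolism and stress response differed. The ATF4 and amino acid list had 14 genes above 0 and 15 below (median -0.00015), and that of hypoxia and glycolysis 9 above and 11 below (median -0.03), both medians above the -0.04 of all genes. Other lists had lower medians. Of 34 genes of the mitochondrial respiratory chain, 26 were below 0, 17 of them with agreeing probe sets, and the median was -0.21. Ndufb8, a subunit of complex I, gave -0.72, and none reached 2-fold. Of 23 genes of cholesterol and fatty acid synthesis, 15 were below 0 (median -0.24), with a median ET-1 difference of 0.23 in wild type and -0.07 in the knockout. The sterol enzymes Msmo1 (-0.99), Hsd17b7 (-0.98) and Cyp51 (-0.91) gave the lowest values, while Srebf2, the transcription factor of that pathway, gave 0.84. Of 22 chaperones of the endoplasmic reticulum, 15 were below 0 (median -0.19), with Hsp90b1 at -0.92 (-1.78 to -0.06) and the stress-response factor Xbp1 at -0.52. Of 14 p53 targets and genes of the Cdkn2 locus, 11 were below 0 (median -0.26), Rrm2b and Gadd45b by 2-fold or more, while Cdkn1a had probe sets on both sides of 0.

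Cell cycle genes lay slightly to the other side. Of 47 entered, 27 were above 0 with a median of 0.06, and 0 reached 2-fold. Uhrf1, which maintains DNA methylation at replication, read 11.33, 10.19, 11.57 and 11.41, lowest in treated wild type, a value of 0.98 (0.93 to 1.02). The replication licensing gene Mcm3 gave 0.63 and the cell cycle transcription factor E2f1 gave 0.82, while the mitotic kinase Aurkb gave -0.69. With array medians subtracted or values quantile normalized, no list median of 0.1 or more in size changed sign, while that of the focal adhesion list went to -0.05 and 0.05 and that of TGF-beta signalling to -0.05 and 0.03.

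**Figure D5:**
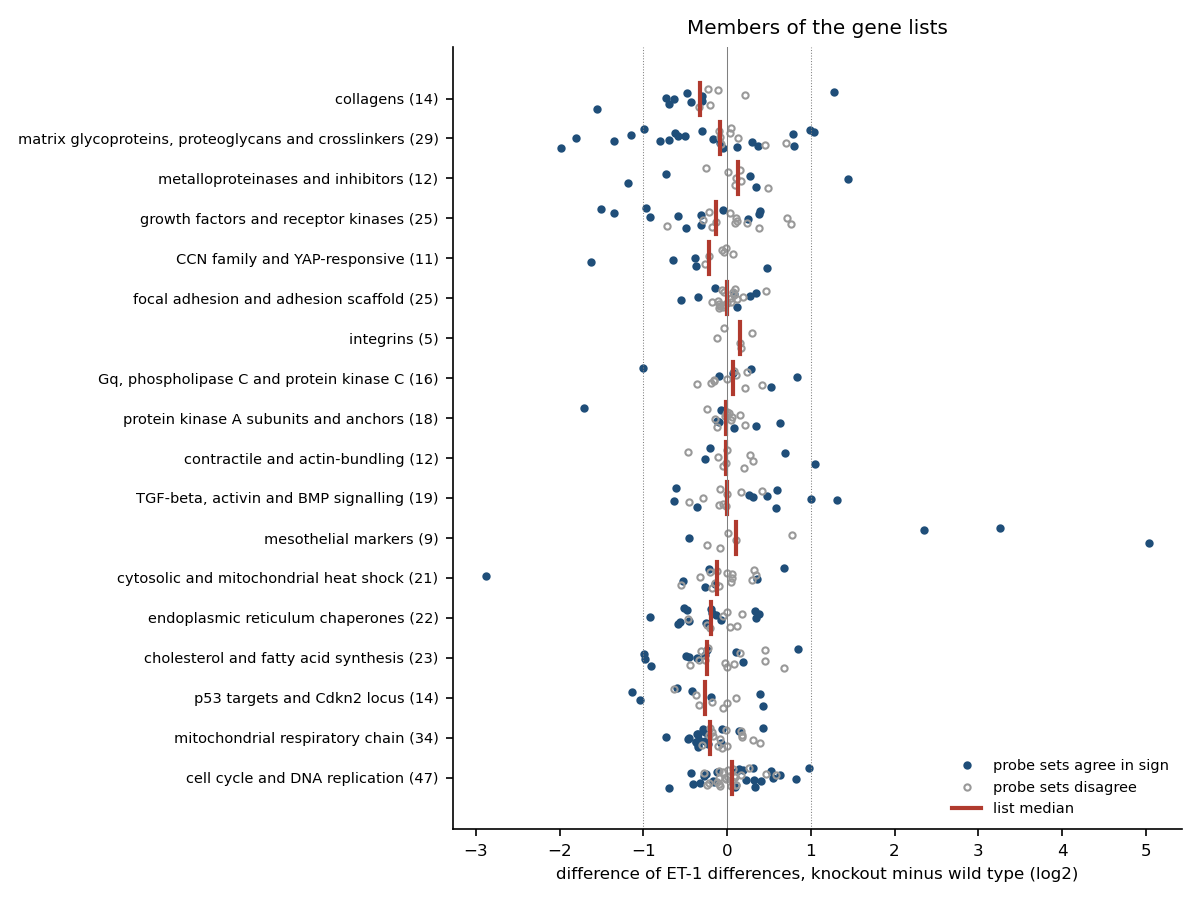
The difference of ET-1 differences (log2, knockout minus wild type) is plotted for every entered member of 18 gene lists, filled where the probe sets agree in sign, with the list median as a red bar and the number of members in brackets. Dotted lines mark 2-fold, the collagen and respiratory chain medians lie below 0, and the mesothelial list has 3 members far to the right.

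Values near the limits show how the counts were set. Prkd1 on the lower and Prpf19 (1.01) on the higher side lay just inside 2-fold, and Id4 (0.997) and Thbs2 (-0.99) just outside. A further 7 genes were at 2-fold by the mean but had probe sets of both signs, among them Mpzl2 (2.09), Nudt21 (1.46) and Ecpas (-1.22). The share of genes whose probe sets agreed fell with their number, from 57.8% with 2 probe sets to 36.8% with 3, 25.3% with 4 and 17.0% with 5 or more. Over the same genes it was 70.2% for the genotype difference in untreated cells, 45.1% for the ET-1 difference in wild type and 55.9% for that in the knockout.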

How the data were processed

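The authors deposited 1 table of log2 values for 45101 probe sets of the Affymetrix Mouse Genome 430 2.0 array, 64 of them controls. Per the submitters' processing notes these are RMA summaries (the version is not given in the sources used here). Such summaries bring arrays to a common distribution, and the array medians were 8.89 to 8.92. The lowest value was 5.00, and whether a constant was added is not given in the sources used here. Per the labels' protocols, 100 ng of Trizol-extracted total RNA was labelled in a two-cycle protocol, which starts at the 3' end of transcripts.

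Probe sets were named by the platform annotation: 34958 have 1 gene, 932 several and 9211 are not listed. Of the first, 34754 matched the RefSeq table by Entrez identifier and 0 symbols differed. A gene needed 2 bright probe sets (highest value above 8.90) annotated to it alone, and 20939 probe sets were bright. Of 12306 genes with a bright probe set, 7066 had only 1. The gene value is the mean over bright probe sets. Differences are on the log2 scale, and 2-fold is 1 log2 unit. With 4 groups of 1 array there are 0 residual degrees of freedom, so precision is limited by the number of arrays. The calculation was tested on simulated data, in which every probe set of chosen genes was given the same known difference. That checks the arithmetic and not how far real probe sets can be relied on.

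Named genes were the 15 highest and 15 lowest by the smallest probe set value, the 10 highest and 10 lowest with the larger difference in the knockout, the 10 most opposed, up to 4 members with the largest means in each list, and a short set by name. Genes with predicted or clone names were skipped, and not every named gene is described. The genes and lists were chosen with earlier results of these data known. Promoter windows were found for 52 of the 60 higher and 23 of the 31 lower genes. Python 3.11.15, numpy 2.4.6, pandas 2.3.3 and matplotlib 3.10.9 were used. Alternatives covered normalization, gene summary, filters, probe set types and thresholds.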

Additional observations from a re-analysis of the deposited data

Results flagged for a closer look

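In 5 genes every bright probe set moved one way after ET-1 in wild type and the opposite way in the knockout, with both mean differences at 1.5-fold or more. The difference between genotypes was not tested, since each group is 1 array. Aebp1 was lower after ET-1 in wild type, by 2.83-fold, and higher in the knockout, by 1.64-fold, a difference of 2.22 (log2). Zbed6 was lower by 1.11 and higher by 0.62, a difference of 1.74. Xrn1 was lower by 0.75 and higher by 0.69, a difference of 1.45. Aspn was higher by 1.09 in wild type and lower by 0.89 in the knockout, a difference of -1.98. Vegfc was higher by 0.70 and lower by 0.80, a difference of -1.51. In Aebp1, Zbed6 and Xrn1 the ET-1-treated wild-type array, whose control gaps were wide, was the lowest of the 4 arrays, and the part of these gaps was not tested. In Aspn and Vegfc the knockout values lay below the median level.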

How the results depend on the processing

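No paired analysis was possible because the labels carry no replicate numbers and each group is 1 array, and for the same reason no replicate could be left out. The counts of 60 higher and 31 lower genes, and of 42 wild-type, 10 knockout and 9 opposed genes among them, moved as follows, and the cause was not tested. With the smallest probe set value they became 11 and 11, and 8, 4 and 2. Requiring 3 or more probe sets gave 24 and 6, and 15, 4 and 3, from fewer genes (2135). Leaving out probe sets ending in _s_at, _x_at or _a_at gave 36 higher, and 22 wild-type and 4 knockout genes. A 1.5-fold threshold gave 194 higher and 238 lower, so the larger count of higher genes did not hold there. At 2-fold it did not hold with the smallest probe set value either (11 and 11). A filter on the mean level gave 5 knockout genes and one at the 75th percentile gave 6. Keeping only genes whose probe sets lie within 2-fold of each other, chosen after seeing the data, gave 21 and 20, almost level, and 16, 4 and 3. The other alternatives moved none of these 5 counts by over 1.5 times, but with the brightest probe set only 48 of the 91 genes remained among 98. Subtracting array medians gave 51 higher and 39 lower and moved the median of all genes from -0.04 to -0.10. Of the named genes, 493 values stayed within the range of the gene's own bright probe sets, 26 lay outside it and 0 changed sign as called. That range can be wide. Settings that only choose among these probe sets stay inside it by construction and cannot reverse a called gene, so these counts say little about stability. Of 380 list medians 52 moved by over 0.1, and 10 others, of lists with a main median of 0.1 or more in size, changed sign. Sign changes of smaller medians are not among the 10, and the cause was not tested. Integrins went to -0.0073 with the brightest probe set, -0.040 with the smallest value and -0.0099 without a level filter, and metalloproteinases to -0.27 with the brightest. With the smallest value, the CCN and YAP list went to 0.10, MAP kinase feedback inhibitors to -0.022, heat shock to 0.0030 and p53 targets to 0.057. Growth factors went to 0.056 with the 75th percentile, and feedback inhibitors to -0.063 with probe sets within 2-fold. Dim arrays limit folds: both knockout arrays were below the median level in 15 of the 31 lower genes and treated wild type in 23 of the 60 higher ones. Hspa1b was below it in treated knockout.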

Other observations

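Several genes known for ET-1 or growth responses had 1 bright probe set and so entered no count. Egr1, an immediate early transcription factor, read 11.72 in untreated and 12.77 in ET-1-treated wild type and 11.28 and 12.89 in untreated and ET-1-treated knockout. Fos read 10.42, 11.05, 11.08 and 12.21 in the same order. Both were higher with ET-1 than without it in either genotype. The difference of ET-1 differences was 0.56 for Egr1 and 0.50 for Fos. The metallothionein Mt2 read 12.49, 11.33, 12.97 and 10.89, lower with ET-1 than without it in either genotype, a value of -0.91. Mt1 had the same direction, with -0.39. Edn1, the gene of ET-1 itself, read 10.75, 10.95, 11.91 and 11.86, a value of -0.25. The smooth muscle actin Acta2 stayed between 14.58 and 15.06 on all 4 arrays (-0.08), and Ccn2, a fibrotic matricellular gene, gave -0.52. The endothelin B receptor Ednrb read 9.29 to 9.33, and no probe set is annotated to Ednra alone. Of all 7066 genes with 1 bright probe set, 105 were higher and 98 lower by 2-fold or more, or 2.87%, with no second probe set to compare.

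Of 15 endothelial, 17 leukocyte and 14 neural and glial markers on the array, 0 were at 2-fold or more in the difference of ET-1 differences. Read from the brightest probe set, as these markers were, 1.1% of all 18194 genes were higher and 0.923% lower. Among 16 epithelial markers, Krt14 and Krt18 were higher, and among 11 chondrocyte and osteoblast markers Sox9 was (1.09). The skeletal muscle list held Acta1 (-1.41) and the smooth muscle list Actg2 (-1.72), each lowest in treated knockout. Krt18 is also on the mesothelial list. These genes were named after their values were seen.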
